A study of Mus musculus with 5 samples.

Results

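A set of 37 mouse genes of the cell cycle and of cell proliferation was followed through the dentate gyrus (DG), the part of the hippocampus where new granule neurons arise in the adult. The genes were listed by symbol for their known roles in the cell cycle and not by a rule on their values. Earlier results of these data were known when the list was made. All 37 genes were found among the 23420 gene symbols measured. A mean value of at least 5 over the libraries was reached by 27 of them, and these are called expressed below. RNA-Seq was made from the whole microdissected DG of wild-type CD1 mice, an outbred strain, which the labels give as 4 months old. The study's methods give another age and state that the mice were males. LD mice lived alone with a disk that was fixed in place, RUN mice lived alone with a disk they could run on, and CE mice lived in company with a fixed disk and tunnels, for 4 weeks in each case. Polyadenylated RNA of 8 mice was pooled in equal amounts into 1 library for each of LD, CE and RUN. The RNA of the same 8 runners also went into an L-RUN library from the 4 mice with the shorter running distances and an H-RUN library from the 4 with the longer ones. There were thus 5 libraries, 1 per group, with no replicate, and no test of a difference between groups was possible.

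Cells that divide first copy their DNA and then separate the copies. Cyclin E and the E2F factors drive the step from G1 into S phase, the Mcm2 to Mcm7 helicase and Pcna copy the DNA, and Tyms, Rrm1 and Rrm2 make its nucleotides. Cdk1 with cyclins A and B drives mitosis, which Plk1 and the Aurora kinases organize and the anaphase-promoting complex ends. In the adult DG, division takes place in progenitors of the subgranular zone, and running is known as a stimulus to it, so the study's comparison of runners with mice on a fixed disk, alone or in company, gives a reading of these genes in each housing. The whole DG also holds dividing oligodendrocyte precursors and a large excess of postmitotic granule neurons. In RNA of a whole tissue, fewer dividing cells and less RNA per dividing cell cannot be told apart.

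Promoters of 6 members are shown first because the members share sequence features that the choice by symbol did not use. The letters come from the RefSeq promoter table of GRCm38.p6. For 31 of the 37 members it gave a window of 300 bases, from 250 before to 50 after its start base. These members had 33 windows, and the start base of 22 of them matched a transcript. No window was matched for Aurkb, Ccna2, Ccne2, Kif20a, Mcm4 and Tpx2. Motifs of 3 kinds were searched on both strands. They were the cell cycle homology region (CHR), written TTTGAA or TTCGAA, which the DREAM and MuvB complexes are known to bind, the NF-Y box CCAAT, and the E2F site, written as TTT, then CC, CG, GC or GG, then CGC. TTCGAA reads the same on both strands, and E2F sites on opposite strands can overlap. Capitals mark a match to any of the motifs, in the order of the letters on the gene's own strand, and positions count back from the start base at 0.
Mki67 (chr7:135716460-135716579, minus strand, -200 to -81): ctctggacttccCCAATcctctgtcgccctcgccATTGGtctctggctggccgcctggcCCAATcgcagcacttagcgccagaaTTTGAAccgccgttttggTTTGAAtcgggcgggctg
Top2a (chr11:99024195-99024428, minus strand, -239 to -6): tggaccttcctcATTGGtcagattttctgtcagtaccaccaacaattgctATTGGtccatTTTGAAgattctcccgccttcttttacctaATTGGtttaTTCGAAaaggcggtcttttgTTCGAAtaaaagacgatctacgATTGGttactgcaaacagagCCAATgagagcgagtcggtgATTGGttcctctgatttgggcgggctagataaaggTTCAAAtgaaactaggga
Ccnb2 (chr9:70421559-70421733, minus strand, -179 to -5): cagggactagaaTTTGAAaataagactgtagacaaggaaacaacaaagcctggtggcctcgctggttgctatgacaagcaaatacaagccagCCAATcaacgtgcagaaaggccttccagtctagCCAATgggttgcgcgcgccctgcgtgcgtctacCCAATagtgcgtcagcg
Cdk1 (chr10:69352913-69353132, minus strand, -220 to -1): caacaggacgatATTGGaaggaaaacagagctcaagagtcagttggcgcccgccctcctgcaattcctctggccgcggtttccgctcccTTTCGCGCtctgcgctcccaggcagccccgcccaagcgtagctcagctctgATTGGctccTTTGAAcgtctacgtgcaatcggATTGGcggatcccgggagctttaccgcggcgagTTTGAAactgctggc
Mcm5 (chr8:75109344-75109503, plus strand, -165 to -6): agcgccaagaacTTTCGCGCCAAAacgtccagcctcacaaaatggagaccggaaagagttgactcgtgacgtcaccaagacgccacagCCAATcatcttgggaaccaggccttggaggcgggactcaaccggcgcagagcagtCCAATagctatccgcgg
Mcm6 (chr1:128359706-128359827, minus strand, -122 to -1): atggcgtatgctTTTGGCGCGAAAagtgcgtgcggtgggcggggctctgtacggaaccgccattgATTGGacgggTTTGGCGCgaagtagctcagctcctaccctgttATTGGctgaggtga
The first 4 belong to genes of G2 and mitosis. Mki67 carried a CHR at -116 to -111 and another at -98 to -93, and Cdk1 one at -71 to -66 and one at -15 to -10, each with NF-Y boxes upstream. Cdk1 also held an E2F site at -131 to -124. The last 2 belong to the replicative helicase and held no CHR. Mcm6 held E2F matches at -110 to -103, at -106 to -99 on the other strand and at -47 to -40, and Mcm5 held them at -153 to -146 and, on the other strand, at -149 to -142.

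The CHR was matched mostly in members of G2 and mitosis, and the NF-Y box in most members of either phase. A gene with more than 1 window counted once, where any of them held the motif. Of the 20 members with a window and roles in G2 and mitosis, 16 (80%) held a CHR, 18 (90%) an NF-Y box and 16 (80%) both, while an E2F site was matched in 1 (5%), that of Cdk1. Of the 11 members with a window and roles in G1/S and S phase, 2 (18.2%) held a CHR, Mcm2 and Mcm7, 8 (72.7%) an NF-Y box and 4 (36.4%) an E2F site, in Mcm3, Mcm5, Mcm6 and Mcm7. Among the 10058 expressed genes with a window, the shares were 15.3% for the CHR, 42.9% for the NF-Y box, 7.51% for both and 4.51% for the E2F site. Over the windows of all 27025 genes in the table they were 21.7%, 41.1%, 9.65% and 2.6%. A match of letters is a description and not a site shown to be bound. The plot of motif shares gives these values side by side.

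**Figure D1:**
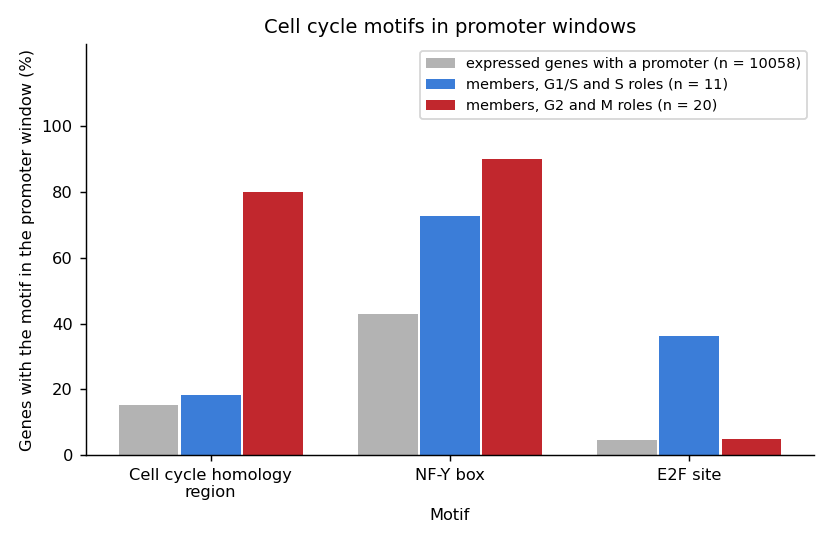
Share of genes (%) whose promoter window held the cell cycle homology region, the NF-Y box or the E2F site, for 10058 expressed genes (grey), 11 members with G1/S and S roles (blue) and 20 members with G2 and M roles (red). The homology region was found in 80% of the red genes against 18.2% of the blue ones, and the E2F site in 5% against 36.4%.

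The values are regularized log (rlog) values on the log2 scale, which DESeq2 makes by shrinking each gene's libraries towards the gene's mean, more strongly where reads are few. All 6 markers of dentate granule neurons listed (Prox1, Calb1, C1ql2, Dsp, Tdo2 and Rfx3) had values between 8.68 and 13.25 in every library. Markers of other brain regions were not set beside them, so the tissue is taken from the labels. Read counts were not analysed here and the depth of the libraries is unknown. The error of a difference between libraries could be taken only from RUN, whose RNA was that of L-RUN and H-RUN together: the spread of RUN around a mixture of its 2 components gave a technical SD of 0.0365 for a difference between 2 libraries over all expressed genes. In the expression deciles of the members it lay between 0.036 and 0.047. It holds the noise of library making and sequencing and not the differences between mice.

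The members spanned a wide range of levels in the DG. The 27 expressed members had mean values from 5.01 (Ccnb2) to 10.26 (Pcna). The other 10 had means from 2.65 (Aurkb) to 4.94 (Rrm2), and they were mostly genes of mitosis: Cdk1, Ccnb1, Bub1, Bub1b, Aurkb, Ube2c, Cdc20, Kif20a and Kif23, with Rrm2 as the S phase gene among them. Ccnb2 lay just inside the minimum of 5 and Rrm2 just outside it. By phase, 12 of 13 members with G1/S and S roles were expressed and 15 of 24 with G2 and M roles. To compare levels between genes, log2 of the length of the longest transcript in kilobases was subtracted from the mean value. On this scale per length, the G1/S and S members had a median level of 6.35, from 3.81 (Rrm2) to 9.65 (Pcna). The G2 and M members had a median of 3.10, from 0.79 (Cdk1) to 5.78 (Hmgb2, a chromatin protein of the high mobility group).

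None of the members reached the study's cut-off of 0.3 for the size of a difference, a ratio of 1.23, in any of the 6 comparisons made. In CE against LD, 0 of 27 expressed members passed it, where 0.598% of the 13550 expressed genes did. In RUN against LD, 0 of 27 passed, with 1.31% of all expressed genes. In L-RUN against LD, 0 of 27 passed, with 3.13% of all. In H-RUN against LD, 0 of 27 passed, with 0.827% of all. In L-RUN against H-RUN, 0 of 27 passed, with 1.54% of all, and in RUN against CE 0 of 27, with 0.834%. Backgrounds this low amount to less than 1 gene in 27, so a count of 0 sets the members apart from other genes in no comparison.

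The median difference of the 27 members from LD was 0.0048 (CE), -0.0059 (RUN), -0.0024 (L-RUN) and -0.0034 (H-RUN). The medians over all expressed genes were -0.0018, -0.0013, -0.0018 and -0.0035. Of the 27 members, 16 (59.3%) stood above LD in the CE library, 13 (48.1%) in the RUN library, 13 (48.1%) in the L-RUN library and 12 (44.4%) in the H-RUN library, against 49.2%, 49.3%, 49.3% and 48.0% of all expressed genes. These comparisons share the LD library. Between L-RUN and H-RUN the median difference of the members was 0.0022 (all genes -0.0028), and between RUN and CE it was 0.0077 (all genes -0.0007). No library held the set as a whole at one end: LD was the highest library for 6 members, CE for 7, RUN for 3, L-RUN for 6 and H-RUN for 5, and LD was the lowest for 7, CE for 3, RUN for 5, L-RUN for 6 and H-RUN for 6. The plot of differences from LD shows the points of the 37 genes on both sides of 0.

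**Figure D2:**
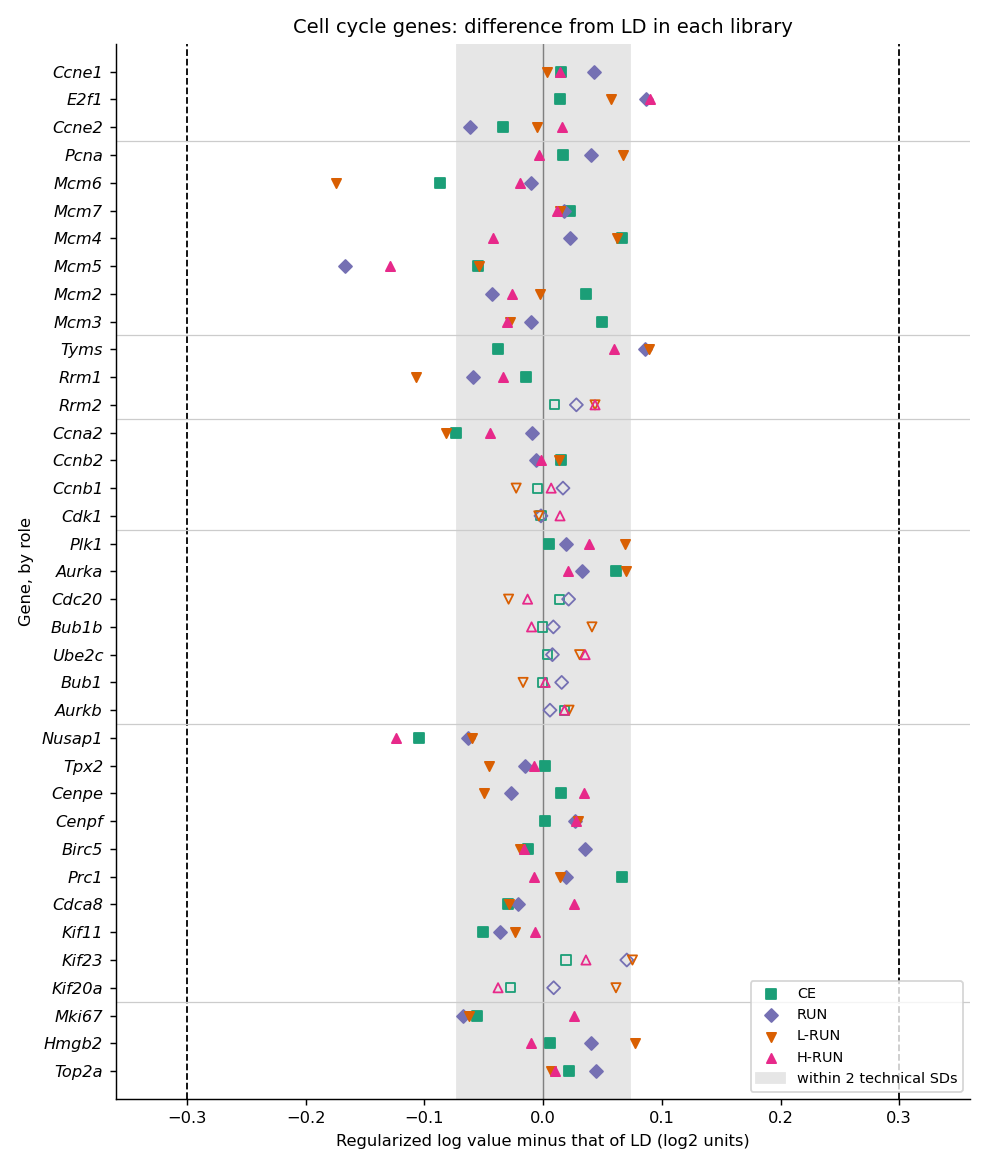
Difference of the rlog value (log2 units) from LD in CE, RUN, L-RUN and H-RUN for each of the 37 genes, grouped by role, with open symbols for the 10 genes under a mean of 5. The grey band spans 2 technical SDs over all expressed genes to each side of 0 and the dashed lines mark 0.3. All points lie inside the dashed lines, and the farthest are Mcm6 in L-RUN at -0.17 and Mcm5 in RUN at -0.17.

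The markers that are commonly used to count dividing cells were close to level. Mki67, the gene of the Ki-67 antigen (chr7:135689784-135716361, GRCm38), had values of 7.63 (LD), 7.58 (CE), 7.57 (RUN), 7.57 (L-RUN) and 7.66 (H-RUN). H-RUN was the highest and the other running libraries the lowest, and the largest gap, 0.093, was about 2 technical SDs of its decile (0.047). With the trend of the differences with transcript length removed, described below, the sign in L-RUN turned from 0.062 below LD to 0.070 above it. Top2a, the topoisomerase that untangles replicated chromosomes (chr11:98992943-99024189), had values of 5.18, 5.21, 5.23, 5.19 and 5.19 in LD, CE, RUN, L-RUN and H-RUN, the order kept below. Its 5 values lay within 0.044. Its mean lay between 5 and 6, where the median range of all genes was only 0.075. Hmgb2 had values of 7.15, 7.16, 7.19, 7.23 and 7.14, highest in L-RUN and lowest in H-RUN.

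Among the genes that open S phase, E2f1, a transcription factor of the G1/S step (chr2:154559407-154569892), had values of 6.51, 6.53, 6.60, 6.57 and 6.60. The 3 running libraries lay above LD and CE, by 0.087, 0.057 and 0.090 over LD in RUN, L-RUN and H-RUN. Ccne1, cyclin E1 and the most abundant of this role group (chr7:38097984-38107534), stayed between 8.82 and 8.86, with 8.82 (LD), 8.83 (CE), 8.86 (RUN), 8.82 (L-RUN) and 8.83 (H-RUN). Ccne2, the other E cyclin, lay between 5.36 (RUN) and 5.44 (H-RUN).

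The 7 replication genes were all expressed, and they held both of the widest ranges of the set. Mcm6 (chr1:128331590-128359664) had values of 10.15, 10.06, 10.14, 9.97 and 10.13. L-RUN stood 0.17 below LD and 0.15 below H-RUN, a ratio of 1.13 between its highest and lowest library, and CE lay between them. Mcm5 (chr8:75109569-75128439) had values of 7.10, 7.05, 6.94, 7.05 and 6.97. It was lowest in RUN, 0.17 below LD, and next lowest in H-RUN, 0.13 below LD. Mcm6 and Mcm5 are subunits of one hexamer, and they were lowest in different libraries.

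The other helicase genes did not follow this pair. Mcm4 had values of 8.34, 8.40, 8.36, 8.40 and 8.30, highest in CE and lowest in H-RUN, and L-RUN exceeded H-RUN by 0.105. Mcm2 (chr6:88883474-88898780) had values of 6.96 (LD), 6.92 (RUN), 6.96 (L-RUN) and 6.94 (H-RUN), and CE lay 0.036 above LD, for a range of 0.079. Mcm3 was highest in CE (6.44) and lowest in H-RUN (6.35), and Mcm7 stayed within 0.023, the narrowest of the helicase genes. Pcna, the sliding clamp of the DNA polymerases (chr2:132249162-132253314), had the highest mean of all members, with values of 10.23, 10.25, 10.27, 10.30 and 10.23. It was highest in L-RUN and level between LD and H-RUN, but with the length trend removed its difference from LD in L-RUN went from 0.067 to -0.0016 and that in H-RUN from -0.0034 to -0.036. The median difference of the 7 genes from LD was 0.023 (CE), -0.0098 (RUN), -0.0024 (L-RUN) and -0.026 (H-RUN).

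The genes of nucleotide supply went in different directions. Tyms, thymidylate synthase (chr5:30058202-30073617), had values of 9.06, 9.02, 9.15, 9.15 and 9.12. All 3 running libraries lay above LD and CE, and RUN exceeded CE by 0.12. A symbol for a Tyms pseudogene, Tyms-ps, is also among the genes measured, so reads could have been divided between them. Rrm1, the large subunit of ribonucleotide reductase (chr7:102441695-102469771), had values of 8.85, 8.83, 8.79, 8.74 and 8.81, and here all 3 running libraries lay below LD and CE, most in L-RUN (0.11 below LD). Rrm2, its small subunit and the one tied to S phase, was under the minimum mean and lay between 4.91 (LD) and 4.96 (H-RUN).

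Genes of mitosis had mostly narrower ranges, but they mostly lay at lower means, where the ranges of all genes are narrower too. The median range of all genes was 0.025 at means from 2 to 3, where Cdk1 lay. It was 0.075 from 5 to 6, where Ccnb2 and Aurka lay, and 0.130 from 9 to 11. Ccna2, cyclin A2 (chr3:36564865-36572150), had values of 6.92, 6.85, 6.91, 6.84 and 6.88, a range of 0.082 with LD highest and L-RUN lowest. The 5 values of Ccnb2, cyclin B2, lay within 0.021 and those of Cdk1, its kinase, within 0.018. Plk1, a kinase of the centrosome and kinetochore, had values of 6.53, 6.53, 6.54, 6.59 and 6.56. Aurka, the Aurora kinase of the spindle poles, had its lowest value in LD (5.19) and its highest in L-RUN (5.26). All 5 had a range under 0.1.

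In the group of spindle, kinetochore and cytokinesis genes, 8 of 10 were expressed. Nusap1, which bundles spindle microtubules (chr2:119618298-119651244), had values of 6.71, 6.61, 6.65, 6.65 and 6.59. LD was the highest library, and H-RUN stood 0.12 and CE 0.10 below it. Cenpe, the kinetochore motor, had values of 5.99 (LD), 5.96 (RUN), 5.94 (L-RUN) and 6.02 (H-RUN), with CE 0.015 above LD and L-RUN 0.084 below H-RUN. The other 6 (Birc5, Cdca8, Cenpf, Kif11, Prc1 and Tpx2) had ranges from 0.030 (Cenpf) to 0.074 (Prc1). The median difference of the 8 genes from LD was -0.0056 (CE), -0.018 (RUN), -0.026 (L-RUN) and -0.0069 (H-RUN).

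In all, the 3 running libraries lay above both LD and CE for 4 of the 27 members (Tyms, E2f1, Plk1 and Cenpf) and below both for 4 (Mcm2, Mcm3, Rrm1 and Tpx2). Over all expressed genes the shares were 15.2% and 16.2%. These 3 libraries share their mice and are not separate observations.

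A lower cut-off, chosen after the data were seen, counted differences over 2 technical SDs of the gene's expression decile. In CE against LD it was passed by 2 of 27 members (7.41%), Mcm6 and Nusap1, both lower, and by 40.6% of all expressed genes. In RUN against LD it was passed by 2, Mcm5 lower and Tyms higher, against 40.7% of all. In L-RUN against LD it was passed by 3 (11.1%), Mcm6 and Rrm1 lower and Tyms higher, against 49.5% of all. In H-RUN against LD it was passed by 3, Mcm5 and Nusap1 lower and E2f1 higher, against 34.5% of all. L-RUN against H-RUN gave 4 members (14.8%), Mcm4 and Hmgb2 higher and Mcm6 and Cenpe lower, with 38.0% of all, and RUN against CE gave 2, Mcm5 lower and Tyms higher, with 33.6%. In each of the 6 comparisons the members' share was below that of all expressed genes.

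The mean value moves with that difference, since 17 of the 27 expressed members had means under 7 and only 1968 of the 13550 expressed genes did. Within this low band, 15.8% to 27.6% of all genes and 0 to 2 of the 17 members passed 2 technical SDs, depending on the comparison. At means of at least 7 it was 36.5% to 53.3% of 11582 genes and 1 to 3 of the 10 members. The range over the 5 libraries gave a like picture. Its median was 0.078 over the expressed members, a ratio of 1.06, and 0.124 over all expressed genes. Of the latter, 694 (5.12%) had a range of at least 0.3, and 25.3% exceeded that of Mcm6, the widest of the members at 0.17.

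Set beside genes of like mean, the members had lower median ranges in the bands from 5 to 9 and from 2 to 3. They had nearly the same from 9 to 11 and wider ones from 3 to 5. Between means of 5 and 6 the median range was 0.055 for 10 members and 0.075 for all 939 genes, with 2 members above the median of all. Between 6 and 7 it was 0.080 for 7 members and 0.099 for 1029 genes, with 1 member above. Between 7 and 8 it was 0.093 for 3 members and 0.123 for 1402 genes, with 1 above, and between 8 and 9 it was 0.075 for 4 members and 0.131 for 1913 genes, with 0 above. Between 9 and 11 it was 0.127 for 3 members and 0.130 for 4847 genes, with 1 above. Between 3 and 4, in contrast, it was 0.039 for 5 members and 0.035 for 788 genes, with 4 above, and between 4 and 5 it was 0.075 for 3 members and 0.050 for 874 genes, with 2 above. Between 2 and 3 it was 0.020 for 2 members (Cdk1 and Aurkb) and 0.025 for 649 genes, with 0 above.

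At these low means a range of 0.3 was out of reach for any gene. Of the 5282 genes with a mean under 5 that were not level in all libraries, 0 had a range of 0.3, and the widest was 0.289. The 10 low members had ranges from 0.018 (Cdk1) to 0.099 (Kif20a). Kif20a, the cytokinesis kinesin, had values of 4.81, 4.79, 4.82, 4.88 and 4.78 in LD, CE, RUN, L-RUN and H-RUN. For the low members, whether a difference of the study's cut-off existed before shrinkage cannot be read from these values.

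**Figure D3:**
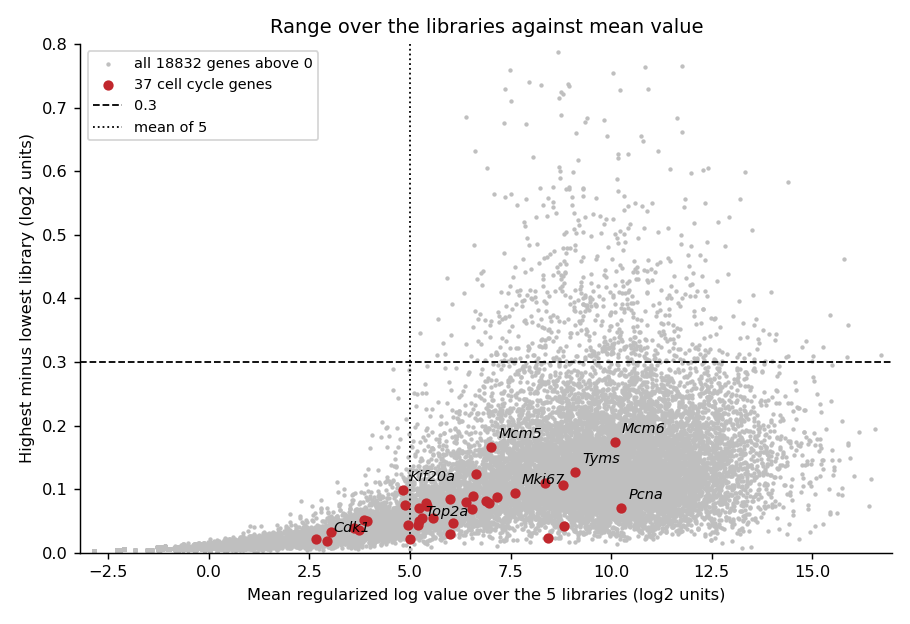
Range over the 5 libraries (highest minus lowest rlog value, log2 units) against the mean rlog value. Shown are the 18832 genes that were not at 0 in every library (grey) and the 37 cell cycle genes (red). Lines mark a range of 0.3 and a mean of 5, and 12 genes lie above the axis, which ends at 0.8. The ranges of all genes narrow as the mean falls, and the red points lie at or under 0.17.

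RUN could be set against its own components for every member. The residual, RUN minus the value of a mixture that takes L-RUN and H-RUN in equal parts, had a median of 0.0077 over the 27 expressed members and an SD of 0.031, from the median absolute deviation, against an SD of 0.0316 over all expressed genes. It ran from -0.076 (Mcm5) to 0.085 (Mcm6), and 5 members exceeded 0.05 in size. Mcm6 and Mcm5, the members with the widest ranges over the libraries, were thus also those for which RUN departed most from the pool of its components. For Mcm5, RUN (6.94) lay below both L-RUN (7.05) and H-RUN (6.97), and for Mcm6, RUN (10.14) lay above both L-RUN (9.97) and H-RUN (10.13). The value of RUN fell inside the interval from L-RUN to H-RUN for 11 members (40.7%), against 58.3% of all expressed genes.

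**Figure D4:**
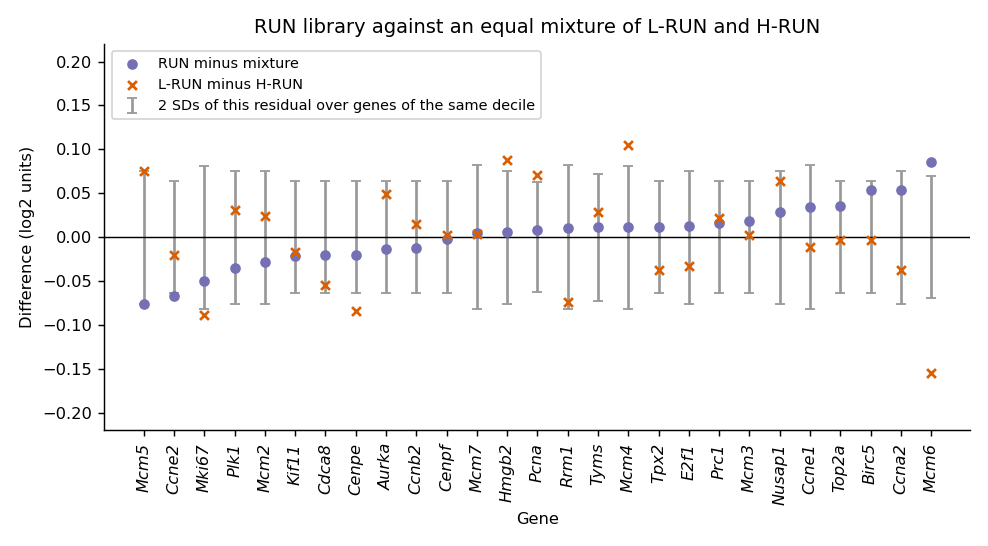
For each of the 27 expressed members, ordered by the first value, the difference of RUN from the mixture of its components in equal parts (circles) and of L-RUN from H-RUN (crosses), in log2 units, with bars of 2 SDs of the first quantity over genes of the same expression decile. Mcm5 at -0.076 and Mcm6 at 0.085 lie at the ends.

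The members were also read by promoter class. The 12 expressed members with a CHR had median differences from LD that came to 0.011 (CE), 0.018 (RUN), 0.014 (L-RUN) and 0.011 (H-RUN), and the 11 with a window and no CHR had medians of -0.013, -0.0098, -0.028 and -0.016. The 4 with an E2F site (Mcm3, Mcm5, Mcm6 and Mcm7) had medians of -0.016, -0.010, -0.041 and -0.025. The CHR members had medians above 0 and those with no CHR below 0 against LD, which all 4 comparisons share, and 0 members of any class passed 0.3. In RUN against CE, which does not use LD, the medians were 0.0013 with a CHR and 0.028 without. In L-RUN against H-RUN they were 0.0091 and -0.0034. All of these medians with and without a CHR were smaller than the technical SD of a single gene (0.036 to 0.047). The median of the 4 E2F members in L-RUN (-0.041) lay inside that interval in size. A median over several genes varies less than a single gene, so that SD cannot show whether the classes differ, which was not tested.

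A further 92 genes of the cell cycle, in 5 lists, were read in the same way, and 61 of them were expressed. Of these, 0 passed 0.3 against LD in CE, RUN, L-RUN or H-RUN, and the medians were -0.0078, 0.0010, 0.0022 and 0.0003. The 20 expressed genes of origin licensing and the replication fork had medians of -0.013, 0.0015, -0.013 and -0.0073. The 18 of the checkpoints and the spindle had -0.012, -0.014, 0.0005 and -0.011, and the 10 E2F and mitotic transcription factors 0.0057, 0.017, 0.027 and 0.0018. Of the 5 expressed inhibitors of cyclin-dependent kinases, which brake the cycle, 5 stood above LD in L-RUN, by 0.063 to 0.19 with a median of 0.106, and 5 in H-RUN, by 0.029 to 0.14 with a median of 0.058. In RUN and in CE it was 3 of 5 each, with medians of 0.056 and 0.036. RUN held the RNA of L-RUN and H-RUN together, yet it did not repeat their counts. Cdkn1b lay 0.069 below LD in RUN, but 0.076 and 0.058 above it in L-RUN and H-RUN. Cdkn2c lay 0.0017 below LD in RUN, but 0.063 and 0.055 above it in those libraries. Of all expressed genes, 49.3% stood above LD in L-RUN, 48% in H-RUN, 49.3% in RUN and 49.2% in CE. The 8 expressed D cyclins, kinases and pocket proteins had medians of 0.018, -0.031, -0.0063 and -0.059, and ran from -0.22 for Ccnd2 to 0.20 for Ccnd3 in L-RUN.

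Markers of progenitors, neuroblasts and oligodendrocyte precursors were also under 0.3. Of 10 markers of neural stem and progenitor cells, 7 were expressed (Eomes, Neurog2 and Tfap2c were not) and 0 passed 0.3, and the medians were 0.082 (CE), -0.0037 (RUN), 0.067 (L-RUN) and -0.029 (H-RUN). In CE the 7 ran from -0.24 (Fabp7) to 0.26 (Hes5). All 8 neuroblast markers were expressed and 0 passed, with medians of -0.032, 0.074, 0.13 and 0.050, and 3, 6, 7 and 6 of the 8 stood above LD. In L-RUN they ran from -0.082 (Dcx) to 0.27 (Calb2). The 6 markers of oligodendrocyte precursors, another dividing cell type, had medians of 0.15, 0.022, -0.015 and 0.025 with 0 past 0.3. These markers were split in RUN, L-RUN and H-RUN. Pdgfra and Cspg4 lay below LD in each, by 0.15 and 0.13 in L-RUN, while Gpr17, Olig1 and Olig2 lay above it and Sox10 went both ways. For microglia, the 7 markers had medians of -0.099, -0.13, -0.12 and -0.11 with 0 past 0.3. Whether the listed markers are restricted to the named cells was not tested, so these medians do not count cells.

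Leptomeningeal fibroblasts, of the membrane around the brain, had median differences from LD in RUN and L-RUN that exceeded those of every cell cycle list. Of their 8 markers, 3 passed 0.3 above LD in the CE library, 5 in that of RUN, 6 in that of L-RUN and 0 in that of H-RUN, where 1 (Dcn) lay 0.52 below LD. Their medians were 0.076, 0.38, 0.65 and -0.013. Of all expressed genes, 0.598% (CE), 1.31% (RUN), 3.13% (L-RUN) and 0.827% (H-RUN) passed 0.3 in either direction. The marker list was made with earlier results of these data known. All of its genes but Lum are among those the study reported past its cut-off. The counts and medians of this list are thus a description and not independent support. Of the 5 choroid plexus markers 2 were expressed, and Ttr stood 0.62 above LD in CE, with 0 past 0.3 in the other 3 libraries. The 7 endothelial markers had medians of -0.065, -0.025, -0.068 and 0.0063, and 1 of them, Flt1, passed 0.3, lying 0.31 below LD in RUN and 0.43 in L-RUN, where Ly6c1 lay 0.13 and 0.20 above it. The 5 mural markers had medians of 0.10, 0.067, -0.023 and 0.015, and 1 of them, Vtn, passed 0.3, lying 0.43 above LD in L-RUN, where Rgs5 lay 0.20 below it. The 6 granule neuron markers had medians of -0.14, -0.11, -0.19 and -0.087, and 5, 5, 4 and 4 of them lay below LD. Against that direction C1ql2 lay 0.37, 0.37 and 0.40 above LD in RUN, L-RUN and H-RUN, and Prox1 lay 0.41 below it in L-RUN. The part of tissue composition in the members' values was not tested.

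Transcript length moved with the differences of L-RUN. Over all expressed genes with a length (94.2%), the Spearman correlation of length with the difference from LD was -0.51 for L-RUN and -0.37 for H-RUN. Over the 27 members it was -0.45 and -0.042. These are correlations across genes of the same pair of libraries, and genes are not replicates. With the trend over all genes removed, Mki67, whose transcript is among the longest of the set at 10061 bases, turned its sign in L-RUN as given above, and Pcna, with 1518 bases, came to lie at LD. Ccnb2, Ccne1, Mcm2, Cenpe and Kif11 also turned sign in L-RUN. Cenpf, with 11130 bases, went from 0.030 to 0.17 above LD. Mcm6 went from -0.17 to -0.14, Rrm1 from -0.11 to -0.048 and Tyms from 0.089 to 0.10. No member passed 0.3 with the trend removed either.

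The annotation places exons of another gene on the opposite strand over exons of 8 members, and whether the counting used strand is not given in the sources used here. The shared part was widest for Kif20a with Cdc23 (29.3% of the exonic bases of Kif20a), then Ccne2 with Ints8 (17.4%), Ccna2 with Exosc9 (12.5%) and Prc1 with Rccd1 (11.1%). For Mcm7 with Ap4m1 it was 7.25%, for Cdca8 with 9930104L06Rik 4.48%, for Nusap1 with Oip5 4.24% and for Cdc20 with Elovl1 2.84%. Reads in these stretches cannot be told apart without strand. The values of these 8 members are uncertain to that extent.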

How the data were processed

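The dentate gyri of LD, CE, RUN, L-RUN and H-RUN mice were sequenced as 1 pooled library per group. Per the submitters' processing notes and the methods, the authors used CASAVA 1.8.2, mapped reads to mm10 with TopHat2 2.0.10, assigned them to RefSeq genes by HTSeq and made regularized log values with DESeq2 1.10.1. These values, on the log2 scale and 1 per gene and library, were deposited and are used as they stand. Read counts were not used here, so depth and counting precision are unknown.

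Differences between libraries were taken on that scale, and no test was run, since each group had 1 library. Expressed genes had a mean of at least 5 over the 5 libraries, and the cut-off of 0.3 in size is the study's. The members and all gene lists were chosen with earlier results of these data known. The technical SD came from RUN minus log2 of the linear mean of L-RUN and H-RUN, by median absolute deviation within 10 deciles of the mean, taking the residual's variance as 1.5 times and that of a difference as 2 times that of a single library. Positions and lengths (longest transcript) came from GENCODE M21 on GRCm38, and promoters from the RefSeq table of GRCm38.p6. The length trend was a lowess curve (fraction 0.3).

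Values in every library are given for Mki67, Top2a, Mcm2 and Pcna, for the 10 expressed members with the widest range, and for the most abundant of each role group; Ccnb2, Cdk1, Aurka, Kif20a and other members or genes are shown besides, chosen after their values were seen. Alternatives were cut-offs of 0.2, 0.4 and 2 technical SDs, centring on the median, quantile normalization, minimum means of 7 and none, removal of the length trend, a baseline averaged over LD and CE, and the median without 5 members that are also transcribed outside of dividing cells. Scripts were tested on simulated data. The scripts ran in Python 3.11.15 with statsmodels 0.14.6, pandas 2.3.3, numpy 2.4.6, matplotlib 3.10.9 and scipy 1.17.1.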

Additional observations from a re-analysis of the deposited data

How the results depend on the processing

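The count of members past the cut-off stayed at 0 in each of the 45 recounts with cut-offs of 0.2 or 0.4, centred differences, quantile normalization, a minimum mean of 7 (10 members left), no minimum mean, the length trend removed, or, for the 3 running libraries, a baseline averaged over LD and CE. Some of these recounts could give only 0. At 0.4 and at a minimum mean of 7, that follows from the count of 0 at 0.3. With no minimum mean, it follows because 0 genes under a mean of 5 had a range of 0.3. The 35 medians, recomputed under all of the settings listed other than the cut-offs and, for L-RUN and H-RUN against LD, without Hmgb2, Pcna, Rrm1, Tyms and Ccne1, which are also transcribed outside of dividing cells, lay between -0.0146 and 0.0199. Whether the members left in, such as Mcm6 with a mean of 10.09, are transcribed only in dividing cells was not tested. The cut-off of 2 technical SDs, added after the data were seen, gave 2 members in CE against LD, 2 in RUN against LD, 3 in L-RUN against LD, 3 in H-RUN against LD, 4 in L-RUN against H-RUN and 2 in RUN against CE, since it lies far under 0.3. With the mixture taken as the mean of log values, the median residual of the members was 0.0081 in place of 0.0077. No paired analysis was possible because each group had 1 library, and for the same reason no library could be left out. Differences between mice, and differences of genes with few reads that the regularized log shrinks, cannot be seen at this design.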

Other observations

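Some of the 92 further cell cycle genes, picked out after their values were seen, had wide differences from LD. Wee1, the kinase that holds Cdk1 inactive, had values of 9.13 in LD, 8.83 (CE), 8.97 (RUN), 8.84 (L-RUN) and 8.98 (H-RUN), so that CE lay 0.296 and L-RUN 0.28 below LD, just inside the cut-off of 0.3. Rpa1, a subunit of the protein that coats single-stranded DNA, had 10.85 in LD and 10.72, 10.66, 10.65 and 10.65 in CE, RUN, L-RUN and H-RUN. Anln, which acts in cytokinesis, had 8.05 in LD and 7.97, 7.82, 7.85 and 7.93 in the others. For these 3 genes LD was the highest library, and the 4 comparisons share it. Rb1, the retinoblastoma protein, lay 0.20 below LD in CE, and Ccnd3, cyclin D3, lay 0.20 above it in L-RUN. Ccnd2, cyclin D2, had 11.15 in LD and 11.16 in CE against 10.98, 10.94 and 11.04 in RUN, L-RUN and H-RUN. Cdkn1a, the p21 inhibitor, had 7.38 in LD and 7.38 in CE against 7.46, 7.57 and 7.48, and Mybl2, a partner of the MuvB complex, had 6.20 and 6.21 against 6.31, 6.39 and 6.26. For Ccnd2 the running libraries all lay below LD and CE, and for Cdkn1a and Mybl2 all above, with no replicate to set these against. Igfbpl1, a neuroblast marker, had 7.15 in LD and 7.13 in CE against 7.43, 7.41 and 7.40, while Dcx, another, had 9.70, 9.66, 9.68, 9.62 and 9.70.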
